A study of Mus musculus with 24 samples.

Results

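The 40 genes described here drive or accompany cell division, and were followed in cultured endothelial cells of the mouse brain. They were chosen by symbol, with the condition that a gene averaged at least 10 normalized counts over the 20 wild-type libraries, and all 40 met it, of 18091 genes in the wild-type table. The rule used no contrast between groups, but the list was chosen with earlier results of these data known. By role they are 2 genes of the chromatin of dividing cells, 6 cyclins, kinases and E2F factors of the G1/S transition, 10 genes of replication licensing and DNA synthesis, 7 of G2 and mitotic entry, 8 of the kinetochore, the spindle checkpoint and chromosome separation, and 7 of the spindle and cytokinesis.

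A dividing cell first licenses its replication origins with the MCM helicase under the control of E2F factors and cyclin E with Cdk2, then copies its DNA, and then enters mitosis through cyclin A, cyclin B and Cdk1. Genes of the first phase are regulated largely by E2F factors, and genes of mitosis by a complex that binds the cell cycle genes homology region (CHR), together with Foxm1 and with NF-Y at CCAAT boxes. Brain endothelial cells rarely divide in the healthy adult vessel, whereas primary endothelial cells put into culture divide until they form a closed layer.

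The cells were primary mouse brain microvascular endothelial cells (MBMECs) from microvessels of cortex and midbrain, each replicate pooled from 12 mice and kept 48 h in puromycin against other cell types. They were seeded on transwell inserts, treated from the apical or the basal side 48 h later, and harvested after 24 h of treatment from 3 inserts per sample. Wild-type cells (C57B/6J) received 50 nM sphingosine-1-phosphate (S1P), a lipid that acts through G protein-coupled receptors, on the basal or the apical side, or 500 nM CYM50260, an agonist of the receptor S1P4, on the basal or the apical side, or vehicle. One more group held vehicle-treated cells of the strain labelled S1P4 KO/KO, a global knockout, and each group had 4 libraries with replicate numbers 1 to 4. In the submitters' description, basal S1P opens the barrier and the other 3 treatments tighten it, and no age of the mice is given there. No label ties a replicate number to 1 pool of mice, so the p-values describe the spread among the libraries, which may be partly technical. The receptor gene S1pr4 was at 250, 261, 349 and 260 normalized counts in the libraries labelled S1P4 KO, where it was not near 0, and at 113 to 190 in the wild-type libraries. These values come from separately normalized tables, with larger library totals in the knockout-labelled one, so they do not show in which cells S1pr4 was higher. The labels do not say which part of the gene was deleted, so these counts do not check the labels.

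The knockout-labelled libraries held 17361639 to 17833560 normalized counts each and the wild-type libraries 4491592 to 4720877, and the tables were normalized separately. All 12 endothelial markers were above the minimum, led by Vwf at a mean of 5661 normalized counts. In the wild-type libraries, markers of other vascular cells were present in uneven amounts, with Rgs5 of pericytes at 26 to 402 and the fibroblast collagen Col1a1 at 2 to 314. Aif1, Cx3cr1 and Gfap, of microglia and astrocytes, stayed between 0 and 6, but other markers of these cells did not. Of 10 microglia and macrophage markers with values, Cd68 averaged at least 10, at 30 to 69. Of 7 astrocyte markers, Gja1 did at 441 to 767 and Aldh1l1 at 54 to 117. In these pooled cultures, fewer dividing cells and less RNA per dividing cell cannot be told apart. Before any comparison, 4 libraries stood apart by Xist, the RNA of the inactive X chromosome. Xist was at 0 to 1 in all libraries numbered 1, at 2251 to 2555 in those numbered 2 except basal S1P at 552 and apical S1P4 agonist at 1382, at 1063 to 1608 in those numbered 3 except apical S1P at 525, and at 173 to 244 in those numbered 4 except apical S1P at 1417. Some results are also given without these 4 libraries, where stated, and the others are given with all libraries only.

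The promoters were searched for the elements named above. The windows are those of RefSeq on GRCm38.p6, from 250 bases before to 50 after the annotated start, and 33 of the 40 genes had one. In 31 of them the annotated start lay within 200 bases of the start of the gene in the deposited table. Of the others, Ccne2, Mcm4, Ccna2, Foxm1, Aurkb, Kif20a and Tpx2 are named only. The 3 shown are examples of windows with the CHR letters and with the E2F letters. Ccnb2, cyclin B2 (chr9:70421505-70421804, minus strand), and Plk1, the polo kinase of mitosis (chr7:122159185-122159484, plus strand), are genes of mitotic entry, and Mcm5, a subunit of the replicative helicase (chr8:75109259-75109558, plus strand), is a licensing gene. Capitals mark TTTGAA (the core of the CHR), CCAAT, and TTTNNCGC (an E2F site), each searched on both strands.
Ccnb2: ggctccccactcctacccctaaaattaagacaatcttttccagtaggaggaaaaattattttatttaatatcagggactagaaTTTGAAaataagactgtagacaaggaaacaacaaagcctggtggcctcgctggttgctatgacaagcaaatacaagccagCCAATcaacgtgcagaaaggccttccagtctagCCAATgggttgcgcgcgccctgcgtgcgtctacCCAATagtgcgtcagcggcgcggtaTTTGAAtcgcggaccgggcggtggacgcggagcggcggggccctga
Plk1: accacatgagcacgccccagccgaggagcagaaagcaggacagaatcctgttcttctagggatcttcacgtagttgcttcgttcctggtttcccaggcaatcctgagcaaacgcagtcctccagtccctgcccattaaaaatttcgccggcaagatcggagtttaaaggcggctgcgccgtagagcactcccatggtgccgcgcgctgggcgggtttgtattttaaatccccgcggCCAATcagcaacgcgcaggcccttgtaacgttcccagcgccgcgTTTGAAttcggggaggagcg
Mcm5: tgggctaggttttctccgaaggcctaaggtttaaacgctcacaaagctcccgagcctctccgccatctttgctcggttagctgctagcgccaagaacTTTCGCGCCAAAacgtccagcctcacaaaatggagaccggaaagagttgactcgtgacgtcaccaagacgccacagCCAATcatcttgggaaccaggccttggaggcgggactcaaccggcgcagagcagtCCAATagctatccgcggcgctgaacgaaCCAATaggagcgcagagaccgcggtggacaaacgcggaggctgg
Ccnb2 held 2 matches to TTTGAA and 3 to CCAAT, Plk1 held 1 of each, and Mcm5 held 0 matches to TTTGAA, 3 to CCAAT and 2 to the E2F letters that overlap by 4 bases. The annotated start in the E2f1 window lay 465 bases inside the deposited gene, and the whole window lay within that gene. The bases before the deposited start of E2f1 were therefore not searched, and its window is not shown.

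Over the 33 windows, TTTGAA stood in 48.5%, CCAAT in 81.8% and the E2F letters in 27.3%, and the windows of Ccne1, E2f1, Birc5 and Nusap1 held none of them. By group, TTTGAA stood in 70.6% of the 17 windows of the 3 mitotic groups and in 11.1% of the 9 windows of the replication group, against 17.9% of all 32851 windows. The E2F letters showed the opposite arrangement, in 11.8% of the mitotic windows and 55.6% of the replication windows, against 5.17% of all windows. CCAAT stood in 82.4% of the mitotic and 88.9% of the replication windows, against 37.4% of all. A match describes these letters and is not evidence of binding.

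Every gene had counts in every library, and the order of levels per exonic length was led by licensing genes. Over the 20 wild-type libraries, Mcm6 averaged 219 normalized counts per kb of exon, Mcm3 averaged 203, Ccnb2 199 and Mcm4 197. The lowest were E2f7 at 26.3, Espl1, the protease separase that cuts cohesin, at 28.7, E2f8 at 31.5 and Cenpf, a large kinetochore protein, at 32.7 normalized counts per kb. E2f7 and E2f8 are the atypical E2F factors that repress other E2F targets. The range over libraries ran the other way at both ends. The highest library held 5.43 times the lowest for the kinetochore motor Cenpe and 5.35 times for Cenpf, but 1.21 times for Mcm6. In summed normalized counts the 40 genes reached 42921 to 65296 per knockout-labelled library and 14314 to 24532 per wild-type library. The tables were normalized separately, with larger library totals in the knockout-labelled one. Relative to these totals the ranges overlapped, and the wild-type range lay higher at both ends. The sums therefore do not show in which cells these genes were higher.

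The treatments left these genes without a called difference, whereas libraries with different replicate numbers differed in most of them. Replicate number was tested beside treatment in 1 linear model over the 20 wild-type libraries (limma, F test on the 3 number terms, adjusted by Benjamini-Hochberg over 12249 genes). It called 35 of the 40 genes (87.5%), where 52.4% of all tested genes were called. Replicate number held a median of 68.7% of the variance of these genes and treatment 8.28%, against 42.9% and 13.9% over all tested genes. Of the 40 genes, 33 were highest in libraries numbered 1, 6 in those numbered 2 and 1 in those numbered 4, and 20 were lowest in those numbered 3 and 18 in those numbered 4. Without the 4 libraries that stood apart by Xist, 38 genes were called, beside 73.7% of all tested genes.

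**Figure D1:**
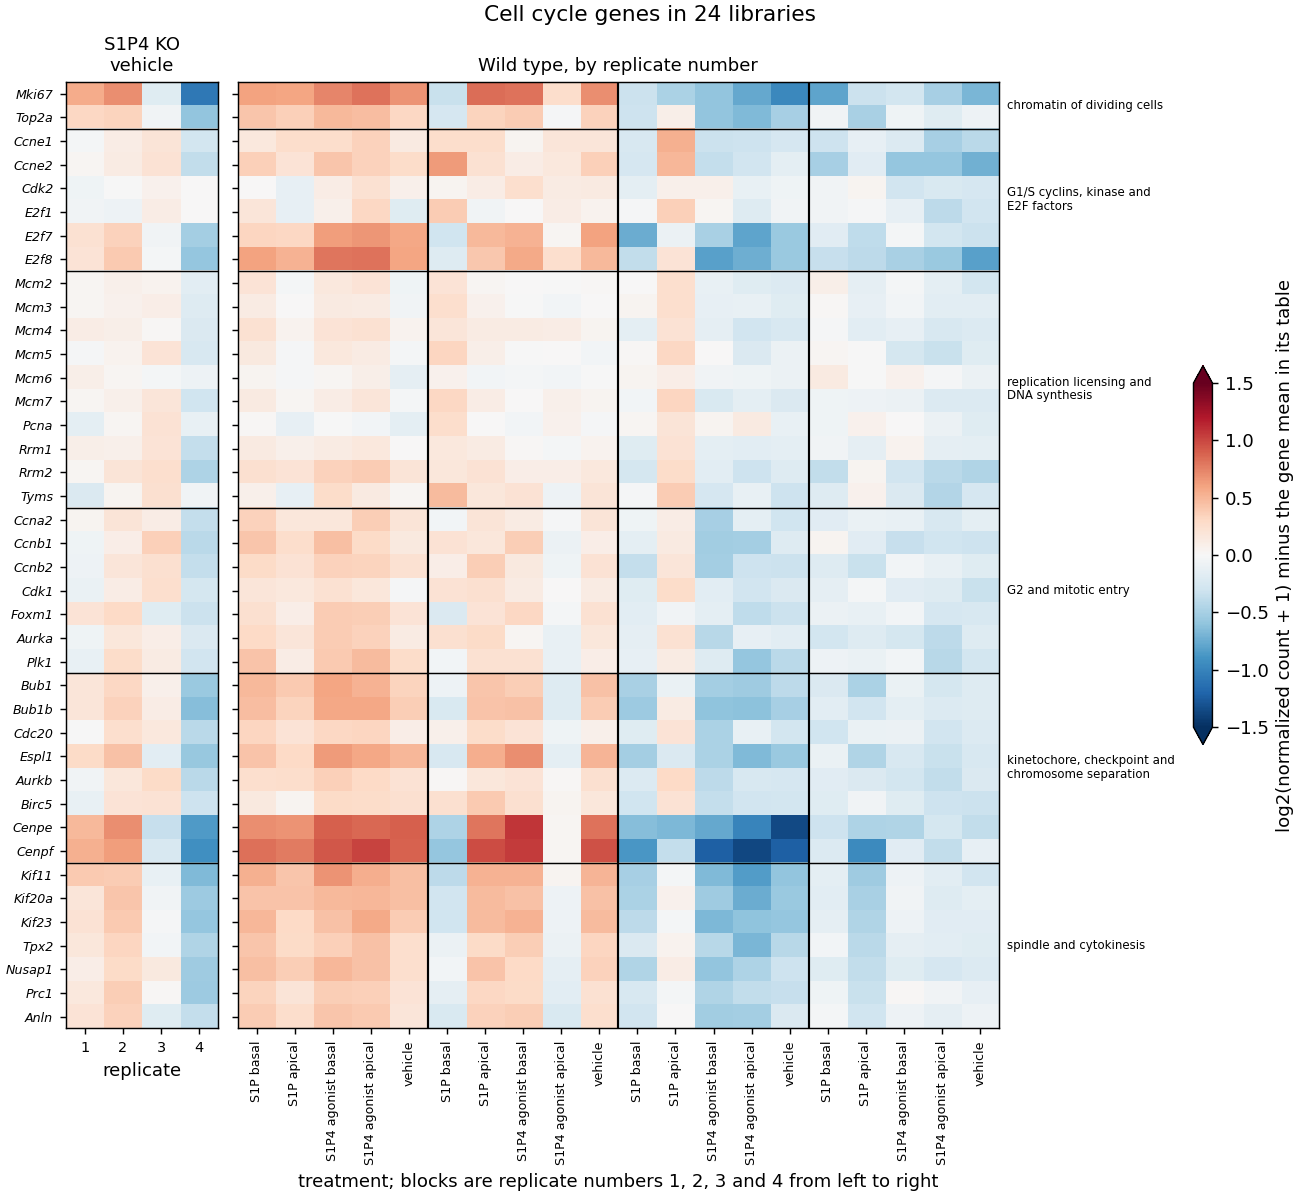
Log2(normalized count + 1) of each gene (rows, grouped by role) minus its mean in its own table, for the 4 knockout-labelled vehicle libraries (left) and the 20 wild-type libraries (right, in blocks of replicate number), with red above and blue below the mean. Libraries numbered 1 are red for most genes, and the replication genes are pale throughout. Within number 2, basal S1P is blue for Cenpe, Cenpf and Kif11, where vehicle, apical S1P and the basal agonist are red. For other mitotic genes, such as Cdk1 and Birc5, basal S1P is red there.

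Mki67 and Top2a, which mark the chromosomes of cycling cells, separated the replicate numbers. Mki67 encodes the Ki-67 protein that coats mitotic chromosomes (ENSMUSG00000031004, chr7:135689784-135716361, minus strand). In libraries numbered 1 it was at 1832, 1814, 2006, 2119 and 1930 normalized counts with basal S1P, apical S1P, the basal agonist, the apical agonist and vehicle, and in those numbered 2 at 959, 2153, 2114, 1446 and 1964. In libraries numbered 3 it was at 968, 867, 800, 706 and 618 and in those numbered 4 at 696, 968, 999, 851 and 752, in the same order of treatments. Libraries numbered 1 lay above all libraries numbered 3 and 4, and those numbered 2 spread over both levels, with basal S1P the lowest of them. The means were 1940 ± 127, 1727 ± 514, 792 ± 136 and 853 ± 132 for numbers 1, 2, 3 and 4 (SD, n = 5 each), and the adjusted p of replicate number was 2.32e-05 (limma). Top2a, the topoisomerase that untangles sister chromatids (ENSMUSG00000020914, chr11:98992943-99024189, minus strand), varied less. In the same order of treatments, Top2a was at 1527, 1465, 1594, 1572 and 1415 in number 1 and at 956, 1436, 1490, 1130 and 1450 in number 2. It was at 923, 1214, 758, 723 and 808 in number 3 and at 1099, 813, 1088, 1003 and 1085 in number 4. All libraries numbered 1 exceeded every library numbered 3 or 4, and the highest and lowest number means differed by 0.80 on the log2 scale (adjusted p = 0.00108, limma).

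Of the 6 genes of the G1/S transition, 5 were called, beside 52.4% of all tested genes. E2f8 and E2f7 differed between number means by 1.19 and 1.03 on the log2 scale, and the cyclin E genes Ccne2 and Ccne1, which activate Cdk2 at the start of replication, by 0.83 and 0.54. All 4 were called, and so was Cdk2 at 0.29 (adjusted p = 0.0252, limma), whose call was lost in 5 of 20 fits without a single library. E2f1, an activator of the replication genes (ENSMUSG00000027490, chr2:154559407-154569892, minus strand), was not called. In the same order of treatments, E2f1 was at 297, 240, 276, 323 and 229 in number 1 and at 339, 251, 261, 281 and 270 in number 2. It was at 257, 333, 267, 227 and 252 in number 3 and at 252, 257, 240, 198 and 213 in number 4. The groups of libraries overlapped, and the adjusted p was 0.135 with all libraries and 0.0132 without the 4 that stood apart by Xist (limma).

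Of the 6 roles, the replication genes were the most even, with a median difference between the highest and lowest number of 0.21 on the log2 scale. Over all tested genes that median was 0.28. Of these 10 genes 6 were called (60%), a share near the 52.4% of all tested genes. Mcm6 ranged over 0.03, and replicate number held 3.19% of its variance (adjusted p = 0.901, limma). Pcna, the sliding clamp of DNA polymerases, ranged over 0.11, and Mcm2 and Mcm3 over 0.20 and 0.16, and these 4 were not called. Without the 4 libraries that stood apart by Xist, Mcm2 and Mcm3 were called (adjusted p = 0.00035 and 0.0027, limma). In that fit 8 of the 10 passed, beside 73.7% of all tested genes. Without apical S1P 3 alone both were called as well (adjusted p = 0.00268 and 0.00727), and Mcm2 also without apical S1P 1. Mcm5 (ENSMUSG00000005410, chr8:75109569-75128439, plus strand) was at the edge. In the same order of treatments, Mcm5 was at 721, 643, 725, 712 and 636 in number 1 and at 814, 695, 647, 653 and 633 in number 2. It was at 660, 808, 657, 560 and 611 in number 3 and at 663, 651, 542, 516 and 573 in number 4. The highest values were basal S1P 2 and apical S1P 3, both among the libraries that stood apart by Xist, and the adjusted p was 0.0453 (limma). At the other end of this group stood Rrm2, the regulated subunit of ribonucleotide reductase (ENSMUSG00000020649, chr12:24708241-24714146, plus strand). In the same order of treatments, Rrm2 was at 475, 464, 514, 526 and 460 in number 1 and at 452, 470, 432, 432 and 450 in number 2. It was at 336, 488, 360, 325 and 352 in number 3 and at 311, 413, 331, 303 and 295 in number 4. Libraries numbered 1 and 2 lay at 432 and above, and of the 10 numbered 3 or 4 only apical S1P 3 did. The number means of Rrm2 differed by 0.57 on the log2 scale (adjusted p = 0.000219, limma). The helicase subunits Mcm4 and Mcm7, the ribonucleotide reductase subunit Rrm1 and the thymidylate synthase gene Tyms were called with ranges of 0.18 to 0.41. The calls of Mcm5, Mcm7, Rrm1 and Tyms were lost when single libraries were left out, in 13, 11, 9 and 7 of 20 such fits.

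All 22 genes of mitotic entry, the kinetochore and the spindle were called, beside 52.4% of all tested genes. Among those of entry, the ranges ran from 0.32 for Cdk1, the kinase that starts mitosis (ENSMUSG00000019942, chr10:69335146-69352938, minus strand), to 0.57 for Plk1. In the same order of treatments, Cdk1 was at 410, 402, 422, 407 and 357 in number 1 and at 420, 427, 392, 361 and 392 in number 2. It was at 318, 435, 322, 295 and 311 in number 3 and at 329, 352, 321, 316 and 286 in number 4. Libraries numbered 1 and 2 lay at 357 and above, and of those numbered 3 and 4 only apical S1P 3 did. The cyclins Ccna2, Ccnb1 and Ccnb2, the kinase Aurka and the transcription factor Foxm1 lay between those ends, at 0.43 to 0.56.

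The kinetochore genes held the widest ranges. Cenpf differed by 1.89 between number means and Cenpe by 1.69. Cenpf averaged 797 ± 50.9, 662 ± 278, 221 ± 69.5 and 341 ± 71.0 normalized counts in numbers 1, 2, 3 and 4 (SD, n = 5 each). Its lowest value in number 1 was 737, above the highest in numbers 3 and 4, at 337 and 394. Separase (Espl1) and the checkpoint kinases Bub1b and Bub1 ranged over 0.97, 0.89 and 0.87, while Cdc20, an activator of the anaphase-promoting complex, and Aurkb and Birc5 of the chromosomal passenger complex ranged over 0.43 to 0.53. Among the spindle genes the motor Kif11 had the widest range at 1.05 and the midzone protein Prc1 the narrowest at 0.58, with Kif20a, Kif23, Nusap1, Tpx2 and the cytokinesis scaffold Anln between.

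**Figure D2:**
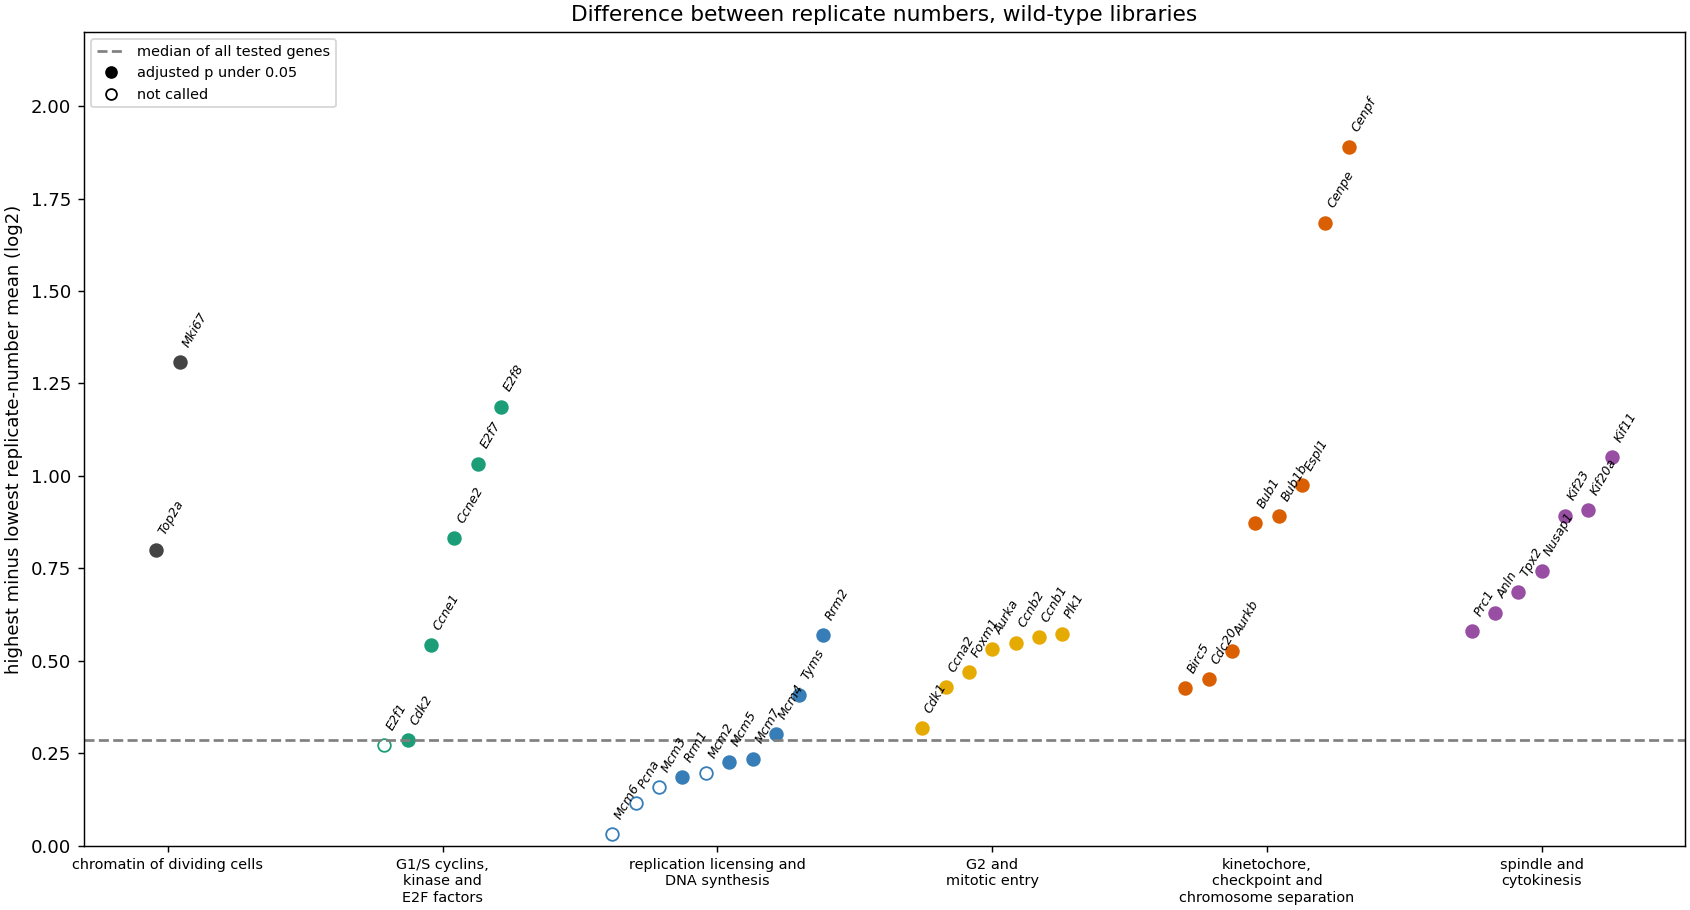
Difference between the highest and the lowest mean over replicate numbers (log2, each mean over 5 wild-type libraries) for each gene by role, filled where replicate number was called at an adjusted p under 0.05. All 4 open points of the replication group lie under the dashed median of all tested genes (0.28), and Cenpf at 1.89 is the highest point.

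Range and transcript length were set side by side. Across the 40 genes, Spearman's rho between exonic length and the range over replicate numbers was 0.39, and across 12243 tested genes with a length it was -0.03, and genes share libraries and are not independent. Between exonic length and the SD over 4 libraries, rho across the 40 was 0.48 in the knockout-labelled and 0.36 in the wild-type vehicle libraries. The part of length in these ranges was not tested.

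Markers of other vascular cells moved with the same replicate numbers. All 8 tested pericyte markers, 8 of 10 of smooth muscle and 5 of 6 of fibroblasts were called for replicate number, against 4 of 12 endothelial markers, where 52.4% of all tested genes were called. The summed levels overlapped between some numbers. The pericyte markers summed to 2180 to 2856 normalized counts in libraries numbered 1, 1601 to 2281 in number 2, 995 to 1800 in number 3 and 276 to 949 in number 4. The smooth muscle markers summed to 4602 to 5095, 4859 to 5454, 4039 to 5193 and 3553 to 4367 in numbers 1, 2, 3 and 4, and were highest in number 2. The fibroblast markers summed to 965 to 1204, 757 to 1158, 246 to 940 and 266 to 363 in numbers 1, 2, 3 and 4, and the endothelial markers to 27315 to 31409, 27465 to 30372, 25675 to 29636 and 27713 to 31181. The part of these cells in the differences between numbers was not tested.

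Other genes of the cell cycle also differed by number, in lists set by pathway, which were likewise chosen with earlier results of these data known. Of 35 tested mitosis genes outside the 40, 34 were called, beside 52.4% of all tested genes. All 35 averaged higher in number 1 than in number 3, as did 6173 of the 12249 tested genes. The condensin subunit Ncapg averaged 342 ± 29.3, 256 ± 42.9, 209 ± 36.3 and 162 ± 6.04 in numbers 1, 2, 3 and 4 (SD, n = 5 each), with cyclin F (Ccnf) and the kinesin Kif18b next by p. Of 32 replication genes outside the 40, 24 were called, beside the same 52.4%, led by the licensing factor Mcm10 (221, 189, 132 and 112 in the same order), the checkpoint mediator Clspn and the polymerase subunit Pole. Of 13 D-type cyclins, G1 kinases, retinoblastoma proteins and other E2F genes, 7 were called (53.8%), a share near that of all tested genes, led by E2f2, E2f5 and Rbl1.

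Inhibitors of cyclin-dependent kinases did not move one way. Of 6 tested, 5 were called, beside 52.4% of all tested genes, led by Cdkn1b, Cdkn2d and Cdkn2c, which were highest in number 1. Cdkn2c, the p18 inhibitor of Cdk4 and Cdk6 and itself an E2F target, averaged 333 ± 28.9, 293 ± 33.0, 205 ± 59.0 and 199 ± 14.1 in numbers 1, 2, 3 and 4 (SD, n = 5 each). Cdkn1a, the p21 inhibitor induced by p53, was ordered differently, at 850 ± 39.998, 959 ± 163, 1155 ± 62.6 and 991 ± 104 (adjusted p = 0.0048, limma). Ccnd1, cyclin D1, which couples growth signals to the G1 kinases, was also highest in number 3, at 1995 ± 132, 2276 ± 398, 2505 ± 148 and 2306 ± 145 (adjusted p = 0.0153, limma).

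Among the genes outside the 40 whose profile over the 20 wild-type libraries was most like the mean standardized profile of the 40 were Cdkn2c (Pearson's r = 0.98), Nasp, Pimreg, Lmnb1, Kcnab2, Cdc25b, Ska3, Rad54l and Shcbp1, the last at 0.95. Among the 40 themselves, r with the mean of the 39 others was highest for Aurkb at 0.95 and lowest for Mcm6 at 0.29 and Pcna at 0.07. These correlations are a description over 20 libraries that share replicate numbers.

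The knockout-labelled libraries, in their own table, were uneven in many of the same genes. Mki67 was at 4803, 5309, 2879 and 1547 normalized counts in knockout-labelled replicates 1 to 4, and Cenpf at 1368, 1471, 804 and 500. Mcm6 was at 4797, 4621, 4424 and 4279 and E2f1 at 529, 520, 591 and 550. Mki67 and Cenpf were thus uneven and Mcm6 even, as between wild-type libraries. E2f1 was even here, with the highest library at 1.14 times the lowest. Its SD over 4 libraries on the log2 scale was 0.08 in knockout-labelled and 0.15 in wild-type vehicle. The 1.71 times that it spanned over the 20 wild-type libraries is a range over more libraries and over all treatments. The SD over 4 libraries on the log2 scale was 0.82 in knockout-labelled and 0.88 in wild-type vehicle for Mki67, and 0.07 in knockout-labelled and 0.05 in wild-type vehicle for Mcm6. The median SD of the 40 genes was 0.29 in knockout-labelled and 0.28 in wild-type vehicle, against 0.18 and 0.15 over 12042 genes in both tables. Spearman's rho between the knockout-labelled and the wild-type vehicle SD was 0.87 across the 40 genes and 0.57 across the 12042.

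Vascular markers in the knockout-labelled libraries moved in part with these values. Rgs5 was at 47, 51, 46 and 61 and Col1a1 at 17, 0, 2 and 9, both low in all 4. Pdgfrb was at 253, 399, 274 and 70 and Cspg4, another pericyte gene, at 198, 273, 236 and 90, lowest in the library that was lowest for Mki67. Vwf was also lowest there, at 90488, 87563, 88122 and 40904, and the endothelial markers summed to 398825, 391698, 386904 and 317659. Pecam1, Cldn5, Erg, Emcn, Esam and Eng were not lowest in that library. The smooth muscle markers went the other way in sum, at 10305, 10691, 9375 and 11137, highest in that library, but single genes differed. Acta2 was highest there, at 1788, 1747, 2326 and 2705, as were Tagln, Mylk, Myl9 and Tpm2. Smtn, Myh11 and Lmod1 were highest in replicate 2. Des was lowest in replicate 4, at 80, 104, 129 and 48, and so was Cnn1, at 16, 24, 35 and 13. The pericyte markers summed to 871, 1194, 942 and 427. The part of other cells in this spread was not tested. Levels were not compared between the tables, which were normalized separately. The ratio of the knockout-labelled to the wild-type vehicle mean had a median of 2.63 over the 40 genes and 1.95 over all genes. Over the 40 it ran from 8.67 for Pcna to 1.54 for E2f8, and the cause of this difference between genes was not tested.

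**Figure D3:**
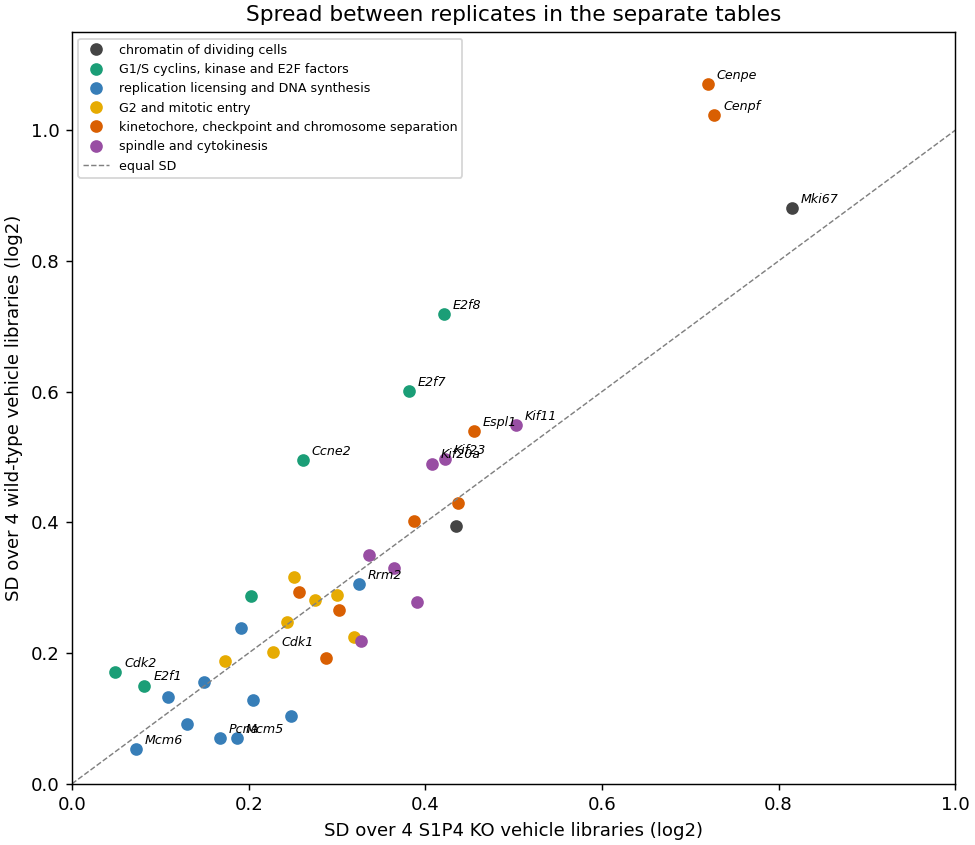
Standard deviation of log2(normalized count + 1) over the 4 knockout-labelled vehicle libraries (horizontal) and the 4 wild-type vehicle libraries (vertical) for each of the 40 genes, coloured by role, with a dashed line of equal SD. Mki67, Cenpe and Cenpf lie at the upper right and Mcm6 at the lower left.

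The first comparison asked how the barrier-opening treatment, basal S1P, differed from vehicle in these genes. No gene of the 40 was called (limma, smallest adjusted p = 0.756), beside 0.0245% of 12249 tested genes, and 4 were under an unadjusted p of 0.05, against 640 of all tested genes (5.22%). All 4 were replication genes. Mcm6 was at 1051, 1072, 1052 and 1123 normalized counts with basal S1P, against 931, 1017, 962 and 964 with vehicle. Each basal S1P library exceeded each vehicle library, by 0.15 ± 0.05 on the log2 scale (SE). Mcm2 was at 884, 881, 768 and 814 with basal S1P, against 732, 776, 665 and 632 with vehicle, with 1 basal S1P library under the highest vehicle library (0.26 ± 0.10). The others were Mcm3 (0.21 ± 0.08) and Pcna (0.18 ± 0.08).

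All 10 replication genes had a positive difference with basal S1P, with a median of 0.17 on the log2 scale, while the median over all tested genes was 0.00. All 10 were also positive against the same vehicle libraries with apical S1P and with the basal agonist, so this sign was not particular to basal S1P. The values of Mcm3, Mcm5 and Mcm6 did not overlap between basal S1P and vehicle, 3 of 40 genes (7.5%) with all 4 libraries above, beside 1.03% of all tested genes. None had all 4 below, beside 1.08%. Other groups had median differences of -0.11 for chromatin, 0.02 for G1/S, 0.05 for mitotic entry, -0.13 for the kinetochore and -0.08 for the spindle, none with a called gene. Without the 4 libraries that stood apart by Xist, 1 of 8 kinetochore and 2 of 7 spindle genes had a positive difference. With replicate number as a block as well, 7 of 8 kinetochore and 7 of 7 spindle genes had a positive difference, where 2 of 8 and 1 of 7 did with all libraries, and Mcm2 and Mcm3 were called, beside 4.23% of all genes.

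Apical S1P against vehicle gave 38 of 40 positive differences with a median of 0.13 on the log2 scale, and 0 called genes, beside 0% of all tested genes. No gene of the 40 was under an unadjusted p of 0.05, against 122 of all tested genes. Cdk1 had the smallest p, with 402, 427, 435 and 352 normalized counts for apical S1P, against 357, 392, 311 and 286 for vehicle, and the groups overlapped (0.27 ± 0.13, SE, adjusted p = 0.9996, limma). Pcna was at 320, 351, 398 and 364 with apical S1P, against 314, 344, 322 and 308 with vehicle (0.15 ± 0.08). Only Mcm5 had all 4 apical S1P libraries above all 4 vehicle libraries, beside 0.604% of all tested genes (0.718% were below), at 643, 695, 808 and 651 with apical S1P, against 636, 633, 611 and 573 with vehicle. Without the libraries that stood apart and with the block, 19 of the 40 differences were positive, with no call.

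The S1P4 agonist gave small differences from vehicle of mixed sign. On the basal side 35 of 40 differences were positive with a median of 0.06 on the log2 scale, and on the apical side 16 were positive with a median of -0.03. No gene of the 40 was called with the agonist on either side (limma, beside 0% of all tested genes), and none was under an unadjusted p of 0.05, against 38 tested genes with the agonist on the basal side and 134 on the apical side. On the basal side the smallest p belonged to Mcm6, at 1043, 998, 988 and 1070 with the agonist, against 931, 1017, 962 and 964 with vehicle (0.08 ± 0.05). Pcna followed there, at 348, 340, 359 and 351 with the agonist (0.12 ± 0.08). On the apical side Pcna had the smallest p, at 340, 364, 382 and 327 with the agonist, against 314, 344, 322 and 308 with vehicle (0.13 ± 0.08), and then Mcm6 at 1086, 990, 975 and 1009 (0.07 ± 0.05). The groups overlapped in each of these. No gene of the 40 had all 4 agonist libraries above or below all 4 vehicle libraries, beside 0.278% and 0.31% of all tested genes on the basal side and 0.335% and 0.343% on the apical side.

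All 4 comparisons with vehicle share the 4 vehicle libraries, so their values are set side by side without a count of agreement. The median difference of the replication genes was 0.17 with basal S1P, 0.15 with apical S1P, 0.09 with the basal agonist and 0.05 with the apical agonist. With the totals of the libraries set equal instead, these were 0.17, 0.16, 0.07 and 0.03, and 6 of 10 rather than 8 of 10 genes were positive with the apical agonist. The spread between libraries was larger for the mitotic genes, with a median SE of 0.29 for the kinetochore genes and 0.10 for the replication genes, in the fit without replicate number.

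Basal against apical S1P compared the same lipid on opposite sides of the layer. No gene was called (smallest adjusted p = 0.9992, limma), beside 0.0245% of all tested genes, and none was under an unadjusted p of 0.05, against 491 of all tested genes. Of the 40 differences 8 were positive, with a median of -0.12 on the log2 scale. Ccne1 had the smallest p, at 199, 215, 151 and 144 normalized counts with basal S1P, against 215, 215, 258 and 164 with apical S1P (-0.27 ± 0.20). Rrm2 was at 475, 452, 336 and 311 with basal S1P, against 464, 470, 488 and 413 with apical S1P (-0.24 ± 0.19). No gene had all 4 basal S1P libraries above or below all 4 apical S1P libraries, beside 0.751% and 0.645% of all tested genes, and the highest Ccne1 value, 258, was apical S1P 3, one of the libraries that stood apart by Xist.

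The signs in this last comparison turned when the libraries were left out and replicate number was added together. Of 8 kinetochore and 7 spindle genes, 0 had a positive difference with all libraries, and all 8 and all 7 had one without the 4 libraries and with replicate number as a block, with medians of 0.08 and 0.10 on the log2 scale. With the 4 libraries left out and no block, 0 of 8 and 0 of 7 were positive. That fit leaves 2 apical S1P libraries, numbered 1 and 2, and 3 basal S1P libraries, numbered 1, 3 and 4, and no gene of the 40 was called in any of these fits.

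**Figure D4:**
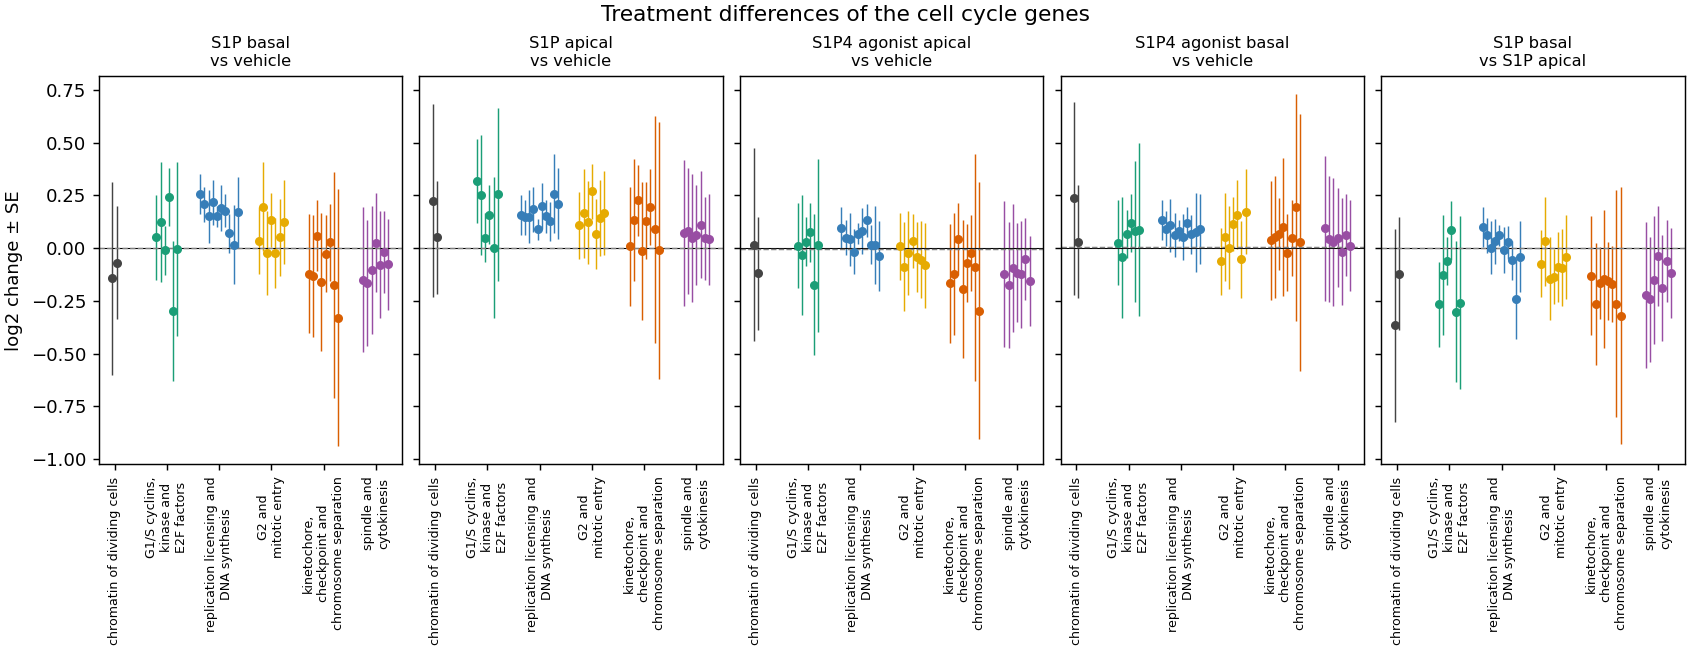
Log2 difference with its SE (limma) of each gene, grouped and coloured by role, in the 5 comparisons, with the dashed line at the median of all tested genes. The replication genes lie above 0 in the first 2 panels and in that of the basal agonist, with short bars, and the kinetochore genes have the longest bars.

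**Figure D5:**
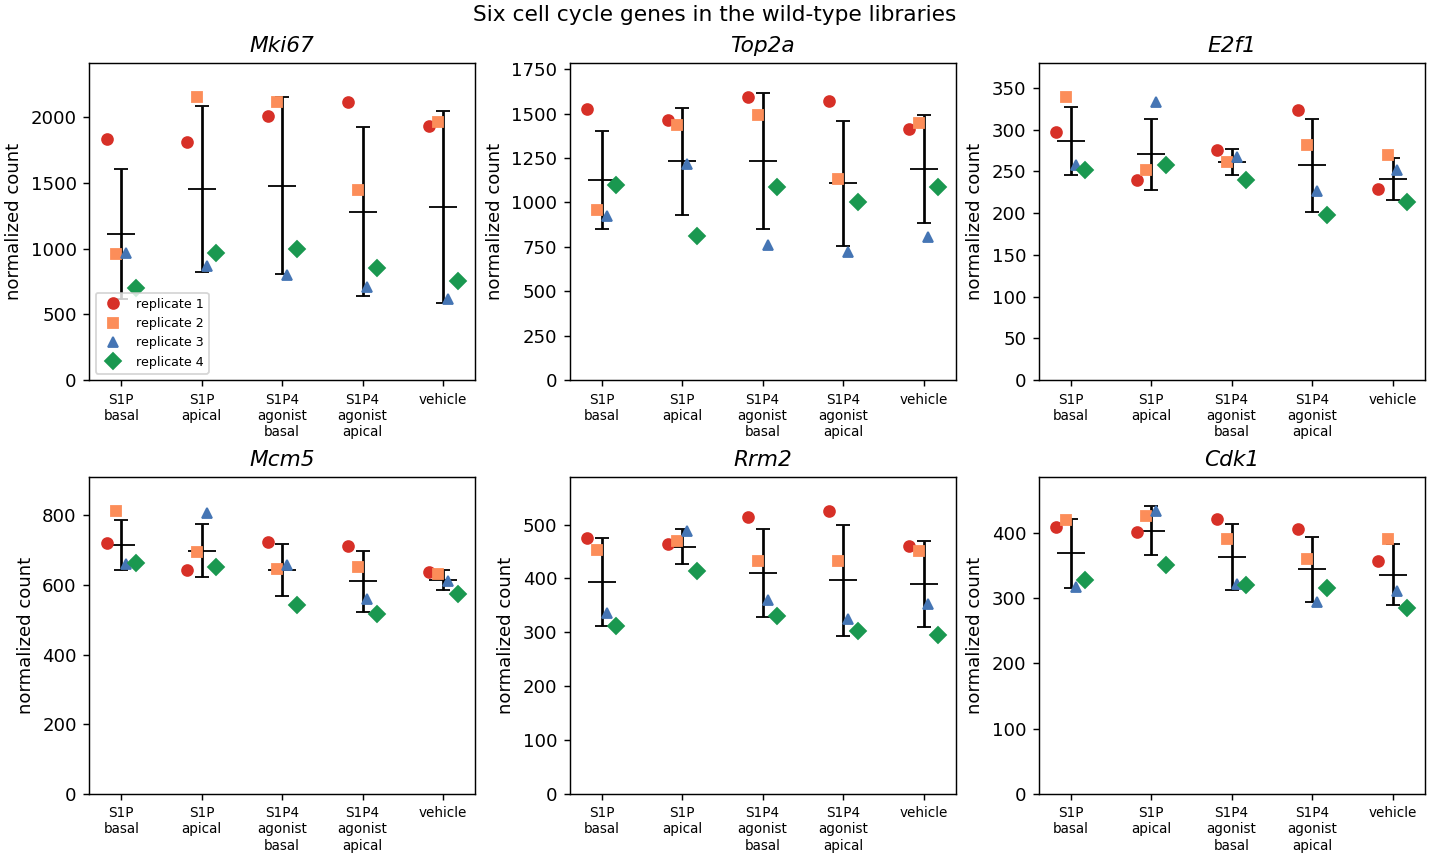
Normalized counts of 6 genes in each wild-type library by treatment, with vehicle at the right, coloured by replicate number, and with the mean and SD over 4 libraries as black bars. For Mki67 and Top2a the points of numbers 1 and 2 lie mostly above those of 3 and 4 in each treatment, and for E2f1 and Mcm5 the numbers mix.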

How the data were processed

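RNA from 24 libraries was sequenced after a stranded mRNA preparation, per the labels' protocols. Per the submitters' processing notes, FastQC, Trimmomatic 0.38, STAR 2.7.3a, featureCounts 1.6.5 and DESeq2 1.26.0 were used with mm10. No source used here gives the strand setting, so overlapping genes on opposite strands may share reads. The values the authors deposited are a signal per gene, which from the values themselves appear to be rounded counts, scaled with 1 factor for each library, and are called normalized counts here. Reads could not be recovered from them, so no count model was run. The depth in reads is therefore unknown and no counting interval is given. The wild-type table (20 libraries) and the knockout-labelled table (4 libraries, 18297 genes after removing 18029 repeated entries) were not tested against each other.

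Genes with a wild-type mean of at least 10 were tested with limma 3.58.1 (R 4.3.3) on log2(value + 1), a scale that understates the changes of low genes. Group means were fitted over all 20 libraries, with a trended prior variance and Benjamini-Hochberg adjustment, and genes at an adjusted p under 0.05 were called. Replicate number was tested by an F test in a model with treatment. The code was tested on simulated data.

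Libraries with the same number deviated together (every correlation over 0.1) for apical S1P (0.375 to 0.664), the apical agonist (0.428 to 0.777) and the basal agonist (0.721 to 0.773) against vehicle, but not for basal S1P against vehicle (lowest 0.0291) or against apical S1P (lowest -0.345).

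The 40 genes and the other lists were chosen with earlier results of these data known. Named genes were 6 genes with all values, the ends of the orders by level and by variance, the 2 smallest p per comparison, up to 3 per other list with Cdkn1a and Ccnd1, and the 10 genes most alike, of which 1 is not reported here. Alternatives changed the pseudocount, filter, scaling, prior, block and libraries.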

Additional observations from a re-analysis of the deposited data

Results flagged for a closer look

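Of 60 sets of values examined, each the 5 libraries of 1 replicate number or the 4 of a group, 2 held a library far from the others by Dixon's criterion, and chance gives about 1 in 20 sets. Both were the apical S1P library numbered 3. Cdk1 was at 435 normalized counts there, where the other libraries numbered 3 lay between 295 and 322, a gap of 0.807 of the range. Rrm2 was at 488 there, where the others lay between 325 and 360, a gap of 0.785 of the range. In the same library Xist was at 525, against 1063 to 1608 in the others numbered 3.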

How the results depend on the processing

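No gene of the 40 was called for treatment under the other pseudocounts, filters, scalings or prior, in the 2-group fits or without any single library (called genes 0 to 0), and none of the signs of the named differences reversed. With the replicate block, 0 of the 40 were called in each comparison, while calls over all genes came to 47 rather than 3 for basal S1P against vehicle and 83 rather than 3 for basal against apical S1P. The exception was basal S1P against vehicle without the 4 libraries that stood apart by Xist and with the replicate block, chosen after seeing the data. In that fit 2 of the 40 genes were called (Mcm2 and Mcm3, smallest adjusted p = 0.00477, limma), beside 518 of 12249 tested genes (4.23%). The cause was not tested. Leaving out single libraries moved the median difference of the 40 between -0.08 and 0.11 for basal S1P, 0.05 and 0.24 for apical S1P, -0.06 and 0.18 for the basal agonist and -0.19 and 0.07 for the apical agonist against vehicle, and between -0.24 and -0.03 for basal against apical S1P. For replicate number, 30 to 37 of the 40 genes were called without single libraries, beside 39.8% to 62.5% of all tested genes. Without the trend 31 were called, beside 49.4%, and without a filter 34, beside 37.1%.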

Other observations

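Of 12 targets of p53, the factor that halts the cycle after damage, 7 were called for replicate number in the wild-type libraries (limma, adjusted over all tested genes), a share near the 52.4% of all tested genes. Phlda3, an inhibitor of Akt signalling, averaged 345 ± 20.2, 420 ± 60.7, 509 ± 36.4 and 425 ± 72.8 normalized counts in numbers 1, 2, 3 and 4 (SD, n = 5 each). Mdm2, the ubiquitin ligase that removes p53, averaged 502 ± 14.3, 550 ± 70.03, 717 ± 99.9 and 612 ± 72.1, and Zmat3 was likewise highest in number 3. No gene of this list was called for treatment in the 5 comparisons.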
